A study of Mus musculus with 10 samples.

Results

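The anti-HA peaks of mouse epiblast stem cells were compared with the intervals that control IgG gave in the same tagged line. Members were all intervals of the EpiSC HA list and of the 3 EpiSC IgG lists, taken by the deposited list they stand in. They numbered 6870 of the 49595 intervals in the 6 lists read: 6319 HA peaks and 202, 149 and 200 intervals in IgG replicates 1, 2 and 3.

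The series maps OTX2 by CUT&RUN in epiblast stem cells (EpiSCs), cultured cells that resemble the epiblast after implantation, and in definitive endoderm (DE) made from them. EpiSC samples came from the line 7H OTX2-dTAG-EGFP, on a BL6/129 hybrid background, in which OTX2 carries the tag that anti-HA binds. HA and IgG samples therefore shared genotype and culture, and differed in the antibody. There were 2 HA samples, pooled by the authors into 1 list, and 3 IgG samples, each of 500000 cells, from medium with Activin A at 20 ng/ml, FGF2 at 12.5 ng/ml and NVP at 175 nM. The labels of both HA samples name the EpiSC HA files, but that of the second also names the DE list, which was read as a slip. Lists of 2 other groups were set beside them. DE HA peaks came from the same tagged line after 16 h in 40 ng/ml Activin A and 3 µM CHIR and 24 h in 100 ng/ml Activin A and 100 nM LDN, with live cells sorted. The parental DE HA peaks came from the parental line 5.8 taken through the same steps. Whether 7H is a single clone, and whether replicates were separate cultures, is not given in the sources used here. Peak lists measure no expression, so the EpiSC label could not be checked against marker genes.

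In CUT&RUN, an antibody tethers a nuclease to chromatin, and the short fragments cut free are sequenced. Control IgG has no chromatin target, so its peaks mark places where fragments accumulate without a specific antibody. Such places typically include the mitochondrial genome, ribosomal DNA and repeats whose assembled copies stand for many more copies in the cell. OTX2 is a homeodomain factor of the early embryo that binds bicoid-type sites.

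Few gene starts were touched by IgG. Of 32851 annotated promoter windows, each 250 bases before to 50 bases after a gene start, 4 overlapped an EpiSC IgG interval (0.0122%) and 2079 overlapped an HA peak (6.33%). The HA list is far longer, so the shares of each list are the fairer measure, and they are given further on. The IgG windows belong to 3 genes and are shown because they are the full set, except that 1 gene has a pair of nearly identical windows and only 1 of these is printed. Capitals mark the bases inside the IgG interval, the strand is that of the gene, and sequences are RefSeq's on GRCm38.p6, which mm10 corresponds to.
Polr2a, chr11:69758584-69758883, minus strand, IgG replicate 1: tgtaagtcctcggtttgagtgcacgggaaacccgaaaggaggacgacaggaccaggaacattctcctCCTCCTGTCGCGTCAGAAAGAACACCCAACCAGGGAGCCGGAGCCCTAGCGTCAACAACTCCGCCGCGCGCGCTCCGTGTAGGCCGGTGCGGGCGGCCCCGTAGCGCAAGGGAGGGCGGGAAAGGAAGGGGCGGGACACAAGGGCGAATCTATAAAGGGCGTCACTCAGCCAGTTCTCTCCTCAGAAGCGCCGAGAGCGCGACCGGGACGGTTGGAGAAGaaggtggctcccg
Gm13822, chr5:114922212-114922511, minus strand, both IgG samples: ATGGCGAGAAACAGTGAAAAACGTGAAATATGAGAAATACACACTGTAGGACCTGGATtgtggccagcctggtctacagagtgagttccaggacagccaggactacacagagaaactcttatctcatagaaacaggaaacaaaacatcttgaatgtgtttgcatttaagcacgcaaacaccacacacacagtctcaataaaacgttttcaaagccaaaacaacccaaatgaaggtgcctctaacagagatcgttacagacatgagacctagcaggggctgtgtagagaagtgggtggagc
Gm15564, chr16:35981800-35982099, minus strand, both IgG samples and HA: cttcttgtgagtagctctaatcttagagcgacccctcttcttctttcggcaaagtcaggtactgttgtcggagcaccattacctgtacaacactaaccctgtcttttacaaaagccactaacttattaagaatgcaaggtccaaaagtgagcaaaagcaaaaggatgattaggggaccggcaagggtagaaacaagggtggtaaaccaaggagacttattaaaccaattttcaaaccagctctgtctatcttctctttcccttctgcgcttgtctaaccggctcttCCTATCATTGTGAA

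Polr2a encodes the largest subunit of RNA polymerase II. Its window held 220 bases of IgG interval, had a DE HA peak and had no EpiSC HA peak. The Gm13822 window held 58 bases of the IgG interval, and no HA peak. The window of the lncRNA gene Gm15564 held only 14 bases of an interval that IgG and HA gave with nearly the same edges. For contrast, the windows of 2 epiblast genes with an HA peak and no IgG interval are shown, with the bases inside the HA peak in capitals. Nanog encodes a pluripotency homeodomain factor and Etv5 an ETS factor downstream of FGF signalling.
Nanog, chr6:122707239-122707538, plus strand, HA: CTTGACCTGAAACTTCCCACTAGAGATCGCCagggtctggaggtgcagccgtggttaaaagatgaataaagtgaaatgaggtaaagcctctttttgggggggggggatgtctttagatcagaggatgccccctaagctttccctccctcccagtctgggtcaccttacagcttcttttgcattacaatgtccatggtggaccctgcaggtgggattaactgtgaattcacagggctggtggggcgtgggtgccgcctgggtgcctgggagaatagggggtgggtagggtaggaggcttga
Etv5, chr16:22439521-22439820, minus strand, HA: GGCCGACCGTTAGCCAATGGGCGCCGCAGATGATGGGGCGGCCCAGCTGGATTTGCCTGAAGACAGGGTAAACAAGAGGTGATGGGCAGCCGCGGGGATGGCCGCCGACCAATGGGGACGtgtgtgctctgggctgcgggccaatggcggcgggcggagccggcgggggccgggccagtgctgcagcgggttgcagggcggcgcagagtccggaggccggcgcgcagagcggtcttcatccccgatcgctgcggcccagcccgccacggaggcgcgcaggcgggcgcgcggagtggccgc

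The letters TAATCC, the core of the bicoid-type motif, were searched on both strands of these windows. They occurred in 2320 of all 32851 windows (7.06%) and in 196 of the 2079 at HA peaks (9.43%, 95% Wilson interval 8.25 to 10.8%). With the shorter letters TAATC, which include every TAATCC match, the order turned: 22.0% of all windows and 20.2% of those at HA peaks held a match. Windows at HA peaks were richer in G and C, with a median of 59.7% against 52.7% in all windows, and the part of base composition in these shares was not tested. None of the 4 IgG windows held TAATCC, and 2 held TAATC, which are the pair of nearly identical Gm15564 windows. The Nanog window held TAATCC on the opposite strand, printed as ggatta, at position 212 from its 5′ end and outside the bases covered by the peak. The Etv5 window held none.

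The IgG lists were counted as 2 samples, not 3, and the independence of these 2 was not tested. The first 149 intervals of replicate 3 were identical to the whole replicate 2 list. The other 51 restarted the chromosome order and lay on chromosomes 9 (29), M (6), X (8) and Y (8). Only 3 of them equalled a replicate 2 interval, but 34 overlapped one, and the edges of these differed by a median of 3 bp. Replicates 2 and 3 were therefore merged into 1 sample of 166 intervals. Replicate 1 and the merged sample together marked 232 loci, of which 134 were in both samples, 67 in replicate 1 alone and 31 in the merged sample alone. What the further 51 intervals of replicate 3 are, and how they came into that list, was not tested.

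IgG and HA intervals lay in different parts of the genome. In replicate 1, 9.41% of intervals were mitochondrial (19 of 202), in the merged sample 3.61% (6 of 166) and in the HA list 0.174% (11 of 6319). The 6 of the merged sample all came from the end of the replicate 3 list, and replicate 2 had 0. Outside the mitochondrial genome and ribosomal DNA, 27.2% of replicate 1 intervals, 34.6% of merged intervals and 1.27% of HA peaks lay within 500 kb of a chromosome tip, taken as the start of its assembled sequence or the end of its last annotated gene. Mouse autosomes and X carry their centromere at 1 end, and their assembled sequence starts after base 3000000, next to the centromeric gap. Of the 57 IgG loci at tips, 35 lay on that side of an autosome or X, 4 near the start of chromosome Y and 18 at the other end of a chromosome. A single cluster at chr9:3000010-3038248 held 19 of the 35, and 1 at chr2:181917367-181931336 held 7 of the 18. These counts are therefore not spread evenly over chromosomes. Among the 80 HA peaks at tips, 35 lay on the start side of an autosome or X and 45 at the other end.

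Chromosome Y carried 4.95% of replicate 1 intervals and 4.82% of merged intervals, against 0.0950% of HA peaks. Chromosome 9 carried 12.9% and 18.1% against 5.79%, and most of its IgG loci lay in 1 cluster described further on. The further intervals of replicate 3 lay on chromosomes 9, M, X and Y only, which raises the merged shares there. Replicate 2 alone had 24 of its 149 intervals on chromosome 9 and 6 on Y. The gene-rich chromosome 7 went the other way, with 2.97% and 2.41% of IgG intervals and 8.74% of HA peaks.

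Gene ends marked HA peaks rather than IgG intervals. Interval centres fell no more than 1 kb from either end of a gene for 40.7% of HA peaks (39.5 to 41.9%), 16.3% of replicate 1 intervals (11.9 to 22.1%) and 9.64% of merged intervals (6.02 to 15.1%). Mitochondrial genes, which stand end to end, made up much of the IgG share. Without the mitochondrial genome and ribosomal DNA it was 6.67% and 6.29%, and the HA share was 40.6%. A promoter window was overlapped by 26.6% of HA peaks (1681), 1.49% of replicate 1 intervals (3) and 1.20% of merged intervals (2). Position inside a gene body differed less, at 49.1%, 39.1% and 35.5%. The Wilson intervals cover counting error only, and neighbouring intervals are not independent.

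**Figure D1:**
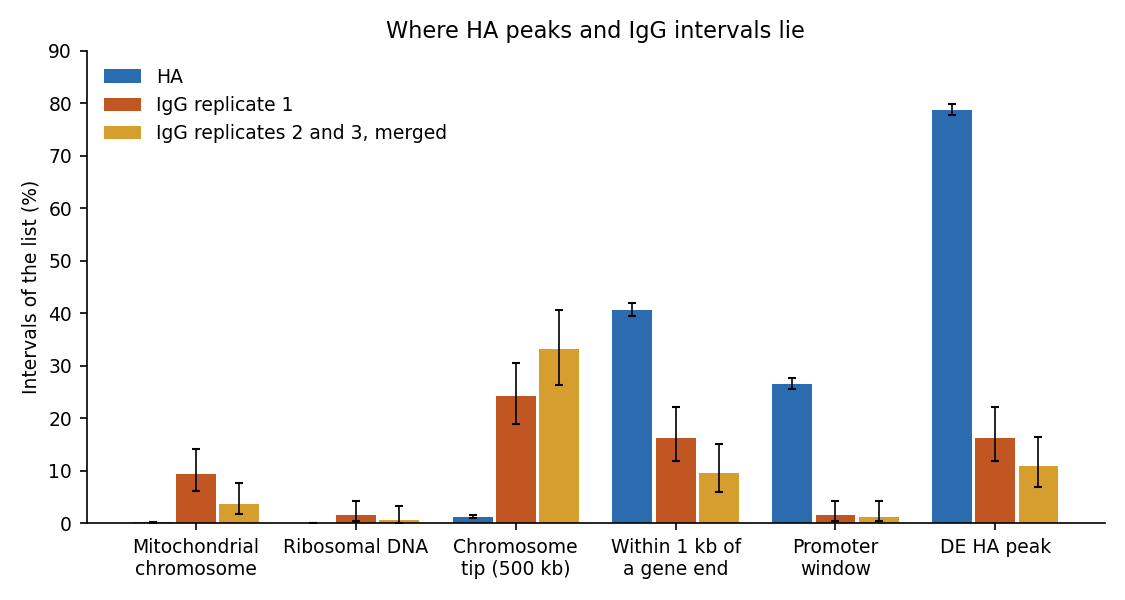
Percent of the intervals of each list (vertical axis) in 6 kinds of place, for HA (blue), IgG replicate 1 (orange) and IgG replicates 2 and 3 merged (yellow), with 95% Wilson intervals as bars. Both IgG samples stand above HA at chromosome tips and on the mitochondrial chromosome (in the merged sample through replicate 3 alone, since replicate 2 had 0 mitochondrial intervals), and HA stands above both at gene ends (40.7% against 16.3% and 9.64%), at promoter windows and at DE HA peaks.

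Small gene families at which HA peaks gathered had no IgG locus. A gene was counted when an interval lay within 1 kb of it. By that rule 9.72% of all nuclear genes had an HA peak and 0.173% an IgG locus. Histone genes, which package newly replicated DNA, had an HA peak at 52 of 72 (72.2%) and an IgG locus at 0 of 72, where a count of 0 allows up to 4.17%. Ribosomal protein genes had an HA peak at 27 of 97 (27.8%) and an IgG locus at none, with a limit of 3.09%. Nuclear tRNA genes, short RNA polymerase III units, had an HA peak at 97 of 403 (24.1%) and an IgG locus at none, with a limit of 0.744%. The IgG share over all nuclear genes is itself close to 0, so nothing particular to these groups is read from the zeros.

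Protein-coding genes had an HA peak at 3715 of 21775 (17.1%) and an IgG locus at 55 (0.253%). The 5S rRNA genes, which are repeated like the larger ribosomal RNA genes, had neither at 71 of 71. Of the 2380 short nuclear RNA genes, 66 had an HA peak within 1 kb (2.77%) and 2, Gm25210 and Gm25101, an IgG locus (0.0840%). Of the 1228 miRNA genes, 40 had an HA peak (3.26%) and 2, Mir101c and Mir6236, an IgG locus (0.163%). Both IgG shares are below the 0.173% of all nuclear genes, so nothing is read from these names. The mature miR-6236, at chr9:110281353-110281371 on the plus strand, lay 2 bp from a replicate 1 interval and is shown with its seed, bases 2 to 8, in capitals.
mmu-miR-6236: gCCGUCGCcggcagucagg

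**Figure D2:**
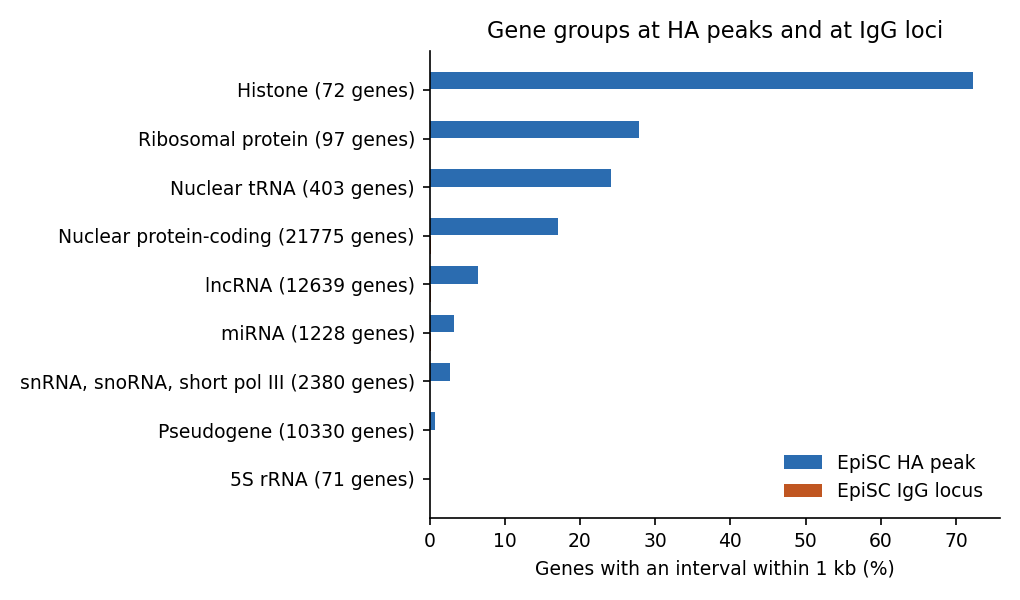
Percent of the genes of each group (horizontal axis) with an EpiSC HA peak (blue) or an EpiSC IgG locus (orange) within 1 kb. HA peaks reached 72.2% of histone genes, 27.8% of ribosomal protein genes and 24.1% of nuclear tRNA genes, while IgG shares stayed at or below 0.253% and are too small to see. HA shares lay below the 9.72% of all nuclear genes for lncRNA (6.49%), miRNA (3.26%), short nuclear RNA (2.77%), pseudogenes (0.707%) and 5S rRNA (0%).

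HA peaks were also counted around genes of an epiblast list. The list holds 30 pluripotency and epiblast genes. Of these, 21 (70.0%) had at least 1 HA peak whose centre was no more than 50 kb away, beside 41.0% of all nuclear protein-coding genes, and 66 distinct HA peaks lay there. No gene of the list had an IgG locus in that window, where a count of 0 allows up to 10%, beside 0.836% of all protein-coding genes. That background is itself close to 0, so nothing particular to the list is read from the absence. Lefty2, an inhibitor of Nodal signalling, had 7 HA peaks, from 84 to 429 bp wide. Sall4, a zinc-finger pluripotency factor, had 6, of which 3 overlapped the gene. Eomes, a T-box factor of the primitive streak, had 5, and so had Nanog. Fgf5, a ligand of the postimplantation epiblast, the morphogen gene Nodal, the POU factor gene Pou5f1 and the Nodal co-receptor gene Tdgf1 had 4 each. The cadherin gene Cdh1 and the DNA methyltransferase gene Dnmt3b had 3 each, and stand first by alphabet among 7 genes with that number.

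IgG loci are sparse, and the median distance to the nearest was 11130 kb for the list and 7223 kb for all nuclear protein-coding genes. Within the list it was shortest for Fgf8, at 86.4 kb, and was 658 kb for Tdgf1, 721 kb for Pou5f1 and 2400 kb for Lefty2. Otx2 itself had neither kind of interval within 50 kb.

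HA peaks and IgG intervals covered much the same range of widths. The median was 141 bp for HA (interquartile range 102 to 204 bp), 115 bp for replicate 1 (93.0 to 213 bp) and 122 bp for the merged sample (101 to 217 bp). Intervals under 100 bp made up 22.9% of HA, 36.6% of replicate 1 and 24.7% of merged intervals. At the other extreme, 3.47% of replicate 1 intervals, 2.41% of merged intervals and 1.30% of HA peaks were over 500 bp. Without the mitochondrial genome and ribosomal DNA these shares were 1.67%, 2.52% and 1.17%. Width also differed between recurrent and other IgG loci. Outside the mitochondrial genome and ribosomal DNA, the 128 loci in both samples had a median width of 142 bp (111 to 248 bp) and the 82 in 1 sample 94.0 bp (87.0 to 104 bp). A locus in both samples spans the union of their intervals, and wider intervals overlap more easily, so part of this difference is set by construction.

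**Figure D3:**
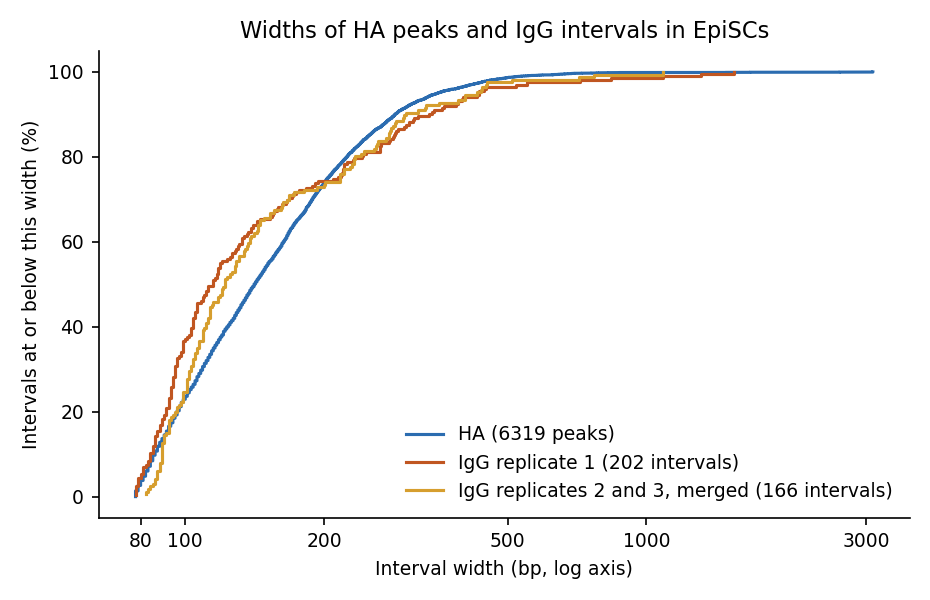
Cumulative percent of intervals (vertical axis) at or below a width in bp (horizontal log axis) for HA, IgG replicate 1 and IgG replicates 2 and 3 merged. The IgG curves run above HA over most widths below the upper quartile, which is 204 bp for HA, 213 bp for replicate 1 and 217 bp for the merged sample.

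The widest intervals of replicate 1 were on the mitochondrial chromosome, at 1552 bp over ND1 and ND2, 1313 bp over ND4 and ND5 and 837 bp over CYTB, and on chromosome 2, at 1086 and 716 bp. ND1, ND2, ND4 and ND5 encode complex I subunits and CYTB a complex III subunit. The merged sample had the same 1086 bp interval at chr2:98666245-98667330, 35268 bp from the nearest gene, Gm33780, and 1 of 715 bp beside it. The others among its 5 widest were 769 bp at chr15:75086268-75087036, 510 bp in E030030I06Rik and 452 bp at chr13:3372923-3373374. Of the 7 HA peaks over 1000 bp, 6 overlapped IgG.

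Each of the 232 IgG loci was placed in 1 of 5 kinds, defined after the intervals had been seen. Mitochondrial loci numbered 19 and ribosomal DNA loci 3. Loci within 500 kb of a tip numbered 57, loci within 10 kb of another IgG locus elsewhere, called internal clusters, 26, and isolated loci 127. Tip and clustered loci recurred most, with 47 of 57 (82.5%) and 21 of 26 (80.8%) in both samples. Isolated loci recurred at 60 of 127 (47.2%) and mitochondrial loci at 5 of 19 (26.3%). All 5 recurred through the further intervals of replicate 3, since replicate 2 had 0 mitochondrial intervals.

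The largest cluster, at chr9:3000010-3038248, held 19 loci of which 17 were in both samples. It had 2 HA peaks, both hit by IgG, and no DE HA peak. The cluster at chr2:181917367-181931336 held 7 loci, 4 HA peaks and 3 hits, at the lncRNA gene Gm40034. At chr14:19415727-19418971 lay 7 loci and 1 HA peak. The 3 loci at chr2:98662238-98667330 each had an HA peak. At chr17:13550700-13552695 lay 4 loci, inside the lncRNA gene 2700054A10Rik, with no HA peak. Of the 18 clusters outside the mitochondrial chromosome, 9 had an HA peak and 1, the ribosomal DNA, a DE HA peak. No repeat annotation was used here, so which of these clusters are satellite or other repeats was not tested.

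Few HA peaks fell at any IgG locus. Of 6319 HA peaks, 50 overlapped an IgG interval by at least 1 bp (0.791%). All 50 were hit by replicate 1, and 34 of them by the merged sample as well. In the other direction, 61 of 232 IgG loci carried an HA peak (26.3%, 21.0 to 32.3%), since several IgG intervals can lie under 1 broad HA peak. By kind, an HA peak was present at 19 of 19 mitochondrial loci, 3 of 3 ribosomal loci, 12 of 57 tip loci (21.1%), 6 of 26 clustered loci (23.1%) and 21 of 127 isolated loci (16.5%). Outside the mitochondrial genome and ribosomal DNA, loci in both samples carried an HA peak at 31 of 128 (24.2%, 17.6 to 32.3%). Loci of replicate 1 alone did so at 8 of 51 (15.7%, 8.17 to 28.0%), and loci of the merged sample alone at 0 of 31, with a limit of 9.68%.

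Presence of a DE peak differed in share between the kinds of hit peak. Over all EpiSC HA peaks, 78.8% overlapped a DE HA peak. Of the 50 hit peaks, 24 did (48.0%, 34.8 to 61.5%). Peaks at isolated IgG loci did so in 16 of 21 cases (76.2%, 54.9 to 89.4%), a share whose interval includes that of all peaks. With the merged sample alone the share was 92.3%. Peaks at tips did so in 1 of 12 (8.33%, 1.49 to 35.4%), and peaks in internal clusters in 0 of 6, where a count of 0 allows up to 50%. Mitochondrial peaks did so in 5 of 9 (55.6%, 26.7 to 81.1%) and ribosomal peaks in 2 of 2. The 1 tip peak with a DE counterpart was at chr6:3201429-3201602. The difference between kinds was not tested, because HA is 1 pooled list per cell state. IgG intervals of DE cells were not used here.

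**Figure D4:**
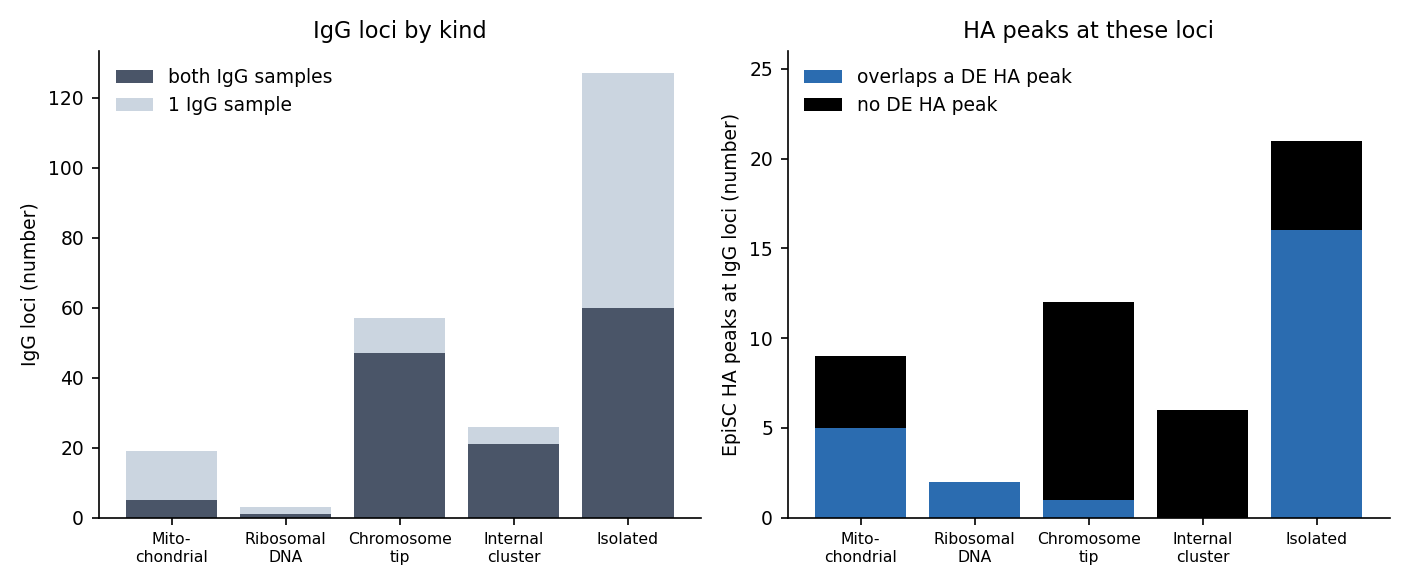
Left, the number of IgG loci of each kind, split into those in both IgG samples (dark) and in 1 (light). Right, the number of EpiSC HA peaks at these loci, split by whether they overlap a DE HA peak (blue) or do not (black): 16 of 21 peaks at isolated loci overlap one, against 5 of 9 mitochondrial, 2 of 2 ribosomal, 1 of 12 at tips and 0 of 6 in internal clusters.

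On the mitochondrial chromosome nearly all bases under IgG replicate 1 also lay under HA, and the merged sample covered little. HA had 11 peaks covering 10.8 kb, replicate 1 had 19 intervals covering 7.40 kb, replicate 2 had none and the further intervals of replicate 3 numbered 6, covering 1.01 kb. Of the bases under replicate 1, 97.8% also lay under HA, and of the HA bases 67.0% lay under replicate 1. The rRNA gene mt-Rnr1 was covered over 100% of its length by HA and 45.9% by replicate 1. ND1 was covered over 100% and 80.3%, and CYTB over 100% and 89.3%. COX2, ATP8, ATP6 and COX3, which encode subunits of complex IV and ATP synthase, had no covered base in either.

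Those genes lay in the longest gap of each list, from base 6442 to 9780 for HA and from 6435 to 11158 for replicate 1. The DE HA list, with 14 narrower peaks covering 2.13 kb, had its longest gap over the same stretch, from 6308 to 11622. The HA peaks M:5164-5242 and M:9781-9865, of 79 and 85 bp, were the 2 of 11 without IgG. Depth on the mitochondrial chromosome is unknown in these lists, so signal strength could not be compared.

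At the ribosomal DNA copy on chromosome 17, beside the 18S pseudogene Rn18s-rs5 (chr17:39846354-39848202) and the lncRNA gene AY036118, HA had broad blocks of 3098 and 2622 bp. Replicate 1 had 3 narrow intervals inside them, of 312, 183 and 171 bp, and replicate 2 had 1 of 298 bp. DE HA had 6 peaks there, from 123 to 880 bp. The IgG intervals thus marked parts of regions that HA covered almost without a break.

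At isolated loci, by contrast, HA and IgG often gave nearly the same interval. Edge match was measured as the bases common to both divided by the bases covered by either, where 1 is identity, using the best matching IgG interval. The median was 0.895 at the 21 isolated peaks, 0.786 at the 12 tip peaks, 0.339 at the 6 clustered peaks, 0.293 at the 9 mitochondrial peaks and 0.0854 at the 2 ribosomal peaks. Edges of isolated peaks differed by a median of 7 bp, and 14 of 21 matched at 0.8 or more. HA was wider than IgG at 15 of the 21 isolated peaks, at 2 of the 12 tip peaks and at 0 of the 6 clustered peaks. HA peaks were pooled from 2 samples and merged within 50 bp, and each is set here against 1 IgG interval, so part of the HA width can be set by construction. The clustered HA peaks were 86 to 185 bp wide, each narrower than its IgG interval, with matches from 0.167 to 0.796.

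**Figure D5:**
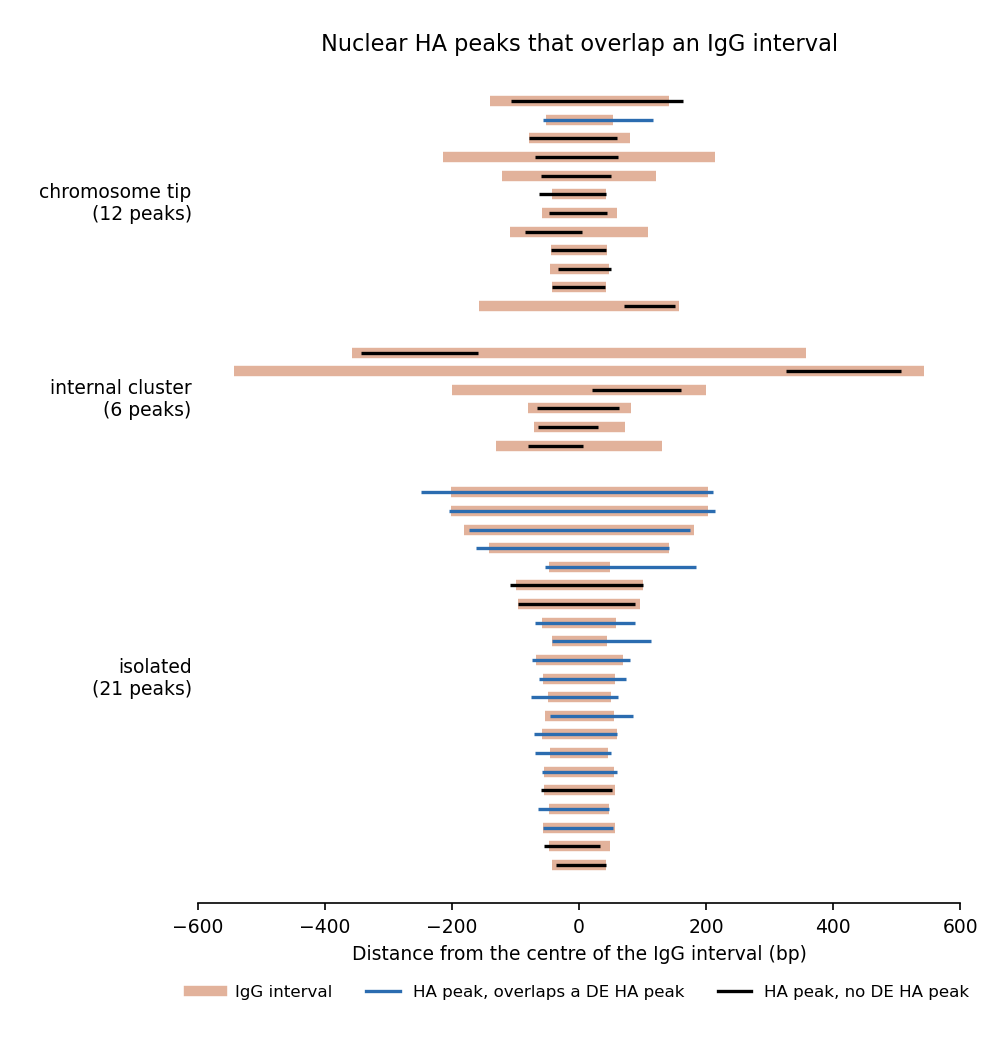
The 39 HA peaks outside mitochondrial and ribosomal DNA that overlap IgG, 1 per line, drawn as thin bars over the best matching IgG interval (thick orange bars), in bp from the centre of that interval. Blue peaks overlap a DE HA peak and black ones do not. Isolated peaks are mostly blue, with 14 of 21 matching IgG at 0.8 or more, and clustered peaks are black and narrower than the IgG interval.

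Most genes at these peaks held the overlapping peak and no other. Cdk8, a kinase of the Mediator complex, had 1 HA peak of 348 bp, which matched IgG at 0.964. It was present in both IgG samples and in DE. Lars2, the mitochondrial leucyl-tRNA synthetase gene, had 1 HA peak of 304 bp close to the end of the gene, matching at 0.934 and also present in DE. The receptor subunit gene Il31ra had 1 HA peak of 118 bp (0.941), and the calcium/calmodulin kinase gene Camk1d 1 of 130 bp (0.908). All 4 lay inside the gene, and whether in an exon or an intron was not examined because only gene bounds were used.

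The lncRNA genes Gm36876, Gm15564, Gm46595 and Gm30821 each held 1 hit peak with a DE counterpart, of 418, 111, 157 and 136 bp. Jarid2, which encodes a cofactor of Polycomb repressive complex PRC2, held 3 HA peaks. Only 1 of them, of 112 bp, overlapped IgG, in replicate 1 alone and with a match of 0.848. Gphn, the gene of the synaptic scaffold gephyrin, held 1 HA peak of 237 bp that extended beyond a 96 bp interval of replicate 1, so the match was 0.405.

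A few hit peaks near genes had no DE counterpart. A peak of 209 bp in the overlapping genes Cmss1 and Filip1l matched at 0.957, in both IgG samples. Another lay 936 bp from the pseudogene Gm18604, was 184 bp wide and matched replicate 1 at 0.953. Gm40034, at the end of chromosome 2, held 2 HA peaks, of 138 and 130 bp, both hit in both IgG samples and without a DE peak.

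The parental list gave a further view of recurrent places, in DE cells of line 5.8 with anti-HA. Of its 14 peaks, 10 lay at an EpiSC IgG locus, 7 of these at loci in both IgG samples and 3 at loci of replicate 1 alone. Beside this, 35 of the 42711 DE HA peaks of the tagged line and 0.791% of EpiSC HA peaks overlapped an EpiSC IgG interval. The 7 loci found in both IgG samples and in the parental list were chr14:19417253-19417396, chr15:21987697-21987799, chr2:98665047-98665208, chr9:3015276-3015420, chr9:75690779-75690874, chrY:6069399-6069499 and chrY:40162501-40162613. Fold enrichment over the caller's background, the authors' own value, was 3.27 to 18.6 at the 7 peaks on isolated loci. It was 1.36 and 1.44 at the 2 in clusters and 1.56 at the 1 on a tip. The 4 parental peaks away from any IgG locus had 4.44 to 6.06, inside the range of the isolated loci. EpiSC HA peaks overlapped the 2 cluster loci and none of the 7 isolated ones. Cell state and line both differ between this list and the EpiSC lists, and for the IgG lists the antibody differs too. The parts of these differences cannot be told apart.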

How the data were processed

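The authors aligned reads to mm10 and called peaks; the submitters' processing notes name Bowtie2 2.3.5.1, SAMtools 1.14, Picard 2.26.10, bedtools 2.30 and MACS2 2.2.6. Peak threshold and control are not given in the sources used here. HA replicates were pooled before deposition and, per the file names, peaks within 50 bp were merged. The deposited HA and IgG lists hold positions only, so read depth is unknown. The parental list holds the authors' fold enrichment, a ratio to background, and deposited −log10 q-values. An authors' deposited table marks genes as down or up, with no contrast stated.

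Intervals were compared with Python 3.11.15, pandas 2.3.3 and numpy 2.4.6, with a minimum overlap of 1 bp, and the overlap functions were tested on simulated data. HA is 1 list and IgG was counted as 2 samples, so no test was made. Shares carry 95% Wilson intervals, and a count of 0 a limit of 3 counts. Gene positions came from RefSeq GRCm38.p6 (49636 genes used, 357 left out because their positions fall in an unassembled start), without strand, so gene ends count both ends. Genes named are those at hit nuclear peaks, the 5 widest intervals of each IgG sample, loci common to IgG and the parental list, and the 10 epiblast genes with most HA peaks, ties by alphabet. Other names were chosen after their values were seen. The members, lists and kinds of locus were chosen with earlier results of these data known. Overlap rule, width, window, merging, chromosomes and replicates were varied. Some results that the naming rule covers are not reported here.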

Additional observations from a re-analysis of the deposited data

How the results depend on the processing

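Of 101 values recomputed for 15 results under 23 settings, 88 were kept, 12 moved and 1 reversed. A share or width was kept within 1 SD of the IgG samples or its 95% Wilson interval, and a count within 1.5 times. Many of the kept values could not have moved. Leaving out replicate 2 changes nothing, because replicate 3 holds all its intervals. Leaving out any IgG replicate cannot change a value of HA alone. Leaving out 1 of the 2 IgG samples always shifts their mean by less than their SD. The number kept is therefore no measure of stability. Of the 101, 27 were chosen after seeing the data. With HA peaks at least as wide as the median, 25 of the 50 hits remained, and the mean share of IgG intervals with an HA peak went from 26.5% to 14.3%. That share was 19.5% when IgG had to cover at least 50% of the HA peak, and 34.5% with gaps of up to 1 kb allowed. Merging intervals within 1 kb first changed the IgG minus HA difference in median width from -22.5 to -30.0 bp. The IgG minus HA difference in the share at gene ends went from -27.7 to -33.6 percentage points without chromosome M and to -33.3 without M and Y. With a window of 100 kb, 1 epiblast gene had an IgG locus. The reversal was with the motif TAATC: the share of windows at HA peaks minus that of all windows went from 2.37 to -1.80 percentage points (20.2% against 22.0%), and 2 windows at IgG held a match. The cause was not tested. With a tip of 200 kb, 0% of hit peaks at tips or clusters had a DE counterpart, against 5.56%. Leaving out each IgG replicate gave 76.2% to 92.3% for isolated loci. The 92.3% came without replicate 1, which also gave 34 hits in place of 50. The IgG minus HA difference in the share on chromosome M or ribosomal DNA was 7.35 percentage points, 4.01 without replicate 1 and 10.7 without replicates 2 and 3. No paired analysis was possible because a single HA list stands for both HA samples. Unknown read depth, caller threshold and caller control limit every count of intervals, and an HA peak absent from a list says only that none was listed there.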

Other observations

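Of the 232 IgG loci, 33 carried a DE HA peak, and 31 of these carried an EpiSC HA peak as well. The other 2 were the Polr2a start, at chr11:69758597-69758816 in replicate 1 alone, and chr2:3964498-3964620 in both IgG samples, 53029 bp from Frmd4a. Both were isolated loci.

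In the widest 10% of HA peaks, from 285 to 3098 bp, 14 of 632 were hit (2.22%), beside 0.791% of all HA peaks. Only 4 of these 14 lay outside mitochondrial and ribosomal DNA, fewer than the 8 in the group from 124 to 141 bp. In the other groups of 10% by width the share ran from 0.158% to 1.27%.

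In the authors' deposited table, 189 of the 6319 EpiSC HA peaks were marked down and 158 up. Among the 50 peaks that overlap IgG, the authors' deposited table marked 1 down, at chr7:130834444-130834555, and 0 up. That table assigns the peak to Plekha1, while the nearest gene by gene ends was Btbd16, at 8542 bp. The peak was hit by replicate 1 alone and had no DE HA peak.

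Chromosome X carried 2.01% of HA peaks, 2.48% of replicate 1 intervals and 5.42% of merged intervals, the last raised by the further intervals of replicate 3. Replicate 2 alone had 6 of its 149 intervals there. On chromosome X, 0 of 9 IgG loci overlapped an HA peak, as did 0 of the 11 on chromosome Y. Of all nuclear loci outside ribosomal DNA 18.6% did, so with so few loci nothing is read from these zeros.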
